A study of Mus musculus with 9 samples.

Results

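Liver sinusoidal endothelial cells line the capillaries of the liver lobule and lie close to hepatic stellate cells across the space of Disse. They are perforated by fenestrae, lack a continuous basement membrane, and clear waste macromolecules and immune complexes from the blood through scavenger, lectin and Fc receptors. Loss of this specialised state in liver disease is known as capillarization. A set of 10 genes that mark these cells, Stab1, Stab2, Clec4g, Lyve1, Fcgr2b, Gpihbp1, Oit3, Dnase1l3, Kdr and Flt4, was followed through RNA sequencing of mesenchymal cells of the mouse liver. The genes were matched by symbol, and all 10 were found among the 24453 genes of the table and passed the filter on low counts.

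The 9 libraries were 3 of steady-state hepatic stellate cells (HSCs), 3 of activated fibroblasts from livers injured with carbon tetrachloride (CCl4-fib) and 3 of activated fibroblasts from livers with non-alcoholic steatohepatitis (NASH-fib), each made from the pooled cells of 3 to 5 mice. HSCs were taken from healthy livers of wild-type C57BL/6J mice by density gradient, without sorting. The authors checked the purity of the HSCs by cell shape and by autofluorescence under UV light. CCl4-fib came from Col1a2-GFP Tg mice, in which the collagen α2(I) promoter drives green fluorescent protein, after CCl4 injections 2 times per week for 8 weeks. NASH-fib came from male mice with the same transgene that also lacked the melanocortin 4 receptor (MC4R-KO) and had eaten a Western diet for 20 weeks from 8 weeks of age. The ages of the other mice are not given in the sources used here. Both kinds of fibroblasts were sorted as CD45- GFP+ cells, a gate set on collagen promoter activity and on no endothelial protein, so that disease and isolation method cannot be told apart between HSCs and fibroblasts. In bulk RNA, fewer endothelial cells and less of a transcript per endothelial cell cannot be told apart either.

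Libraries held 3071070 to 5634273 reads on genes. Levels are given as normalized signal, in which 3 reads, taken as the floor of detection, are worth 2.38 to 4.37. Lrat, the enzyme that stores vitamin A in quiescent stellate cells, had a signal of 7070 to 14894 in HSCs and of 95.4 to 458 in the fibroblasts, and Col1a1 was at 452 to 968 in HSCs and at 3738 to 11375 in the fibroblasts. These genes separated HSCs from fibroblasts in all 9 libraries. A gene was called when its log2 fold change was at least 1 in size with an adjusted p under 0.05 in limma on log2(signal + 1), and fold changes on that scale understate those of low genes.

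All 10 markers had their highest mean in HSCs and their lowest in CCl4-fib, with NASH-fib in between. For Flt4 the means of CCl4-fib and NASH-fib were close, at 122 and 126, and their libraries overlapped. Against HSCs, 10 of 10 were called lower in CCl4-fib, where 11.7% of all 13651 genes tested were called lower, and 8 of 10 in NASH-fib, where 4.3% of all genes were. Between the fibroblasts, 8 of 10 were called higher in NASH-fib, against 4.97% of all genes. The size of the difference varied among them. CCl4-fib held 0.850% of the HSC mean for Oit3 and 21.7% for Flt4, and NASH-fib held 11.7% for Oit3 and 39.0% for Lyve1.

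The 250 bases before the transcription start are shown for 4 markers, picked after their falls in CCl4-fib were known. In these bases Kdr and Flt4, the markers with the smallest falls, differed in base composition from Stab2 and Clec4g, whose falls were larger. RefSeq sequences (GRCm38.p6) were matched for 6 of the 10, Stab1, Stab2, Clec4g, Fcgr2b, Kdr and Flt4. They are written 5′ to 3′ on the strand of the gene, with CG dinucleotides in capitals. Stab2 is at chr10:87007943-87008192 (minus strand), Clec4g at chr8:3720652-3720901 (minus strand), Kdr at chr5:75978456-75978705 (minus strand, from a RefSeq start that lies 27 bases from that in the deposited table) and Flt4 at chr11:49609429-49609678 (plus strand).
Stab2: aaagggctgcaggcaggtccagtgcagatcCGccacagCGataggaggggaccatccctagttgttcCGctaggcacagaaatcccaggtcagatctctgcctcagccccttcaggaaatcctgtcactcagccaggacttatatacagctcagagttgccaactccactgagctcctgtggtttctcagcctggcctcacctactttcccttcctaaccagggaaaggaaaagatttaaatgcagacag
Clec4g: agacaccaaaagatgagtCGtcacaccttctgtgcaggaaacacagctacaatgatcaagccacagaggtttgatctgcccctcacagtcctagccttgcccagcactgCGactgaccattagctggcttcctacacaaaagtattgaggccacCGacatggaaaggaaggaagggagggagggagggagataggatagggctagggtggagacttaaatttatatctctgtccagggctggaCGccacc
Kdr: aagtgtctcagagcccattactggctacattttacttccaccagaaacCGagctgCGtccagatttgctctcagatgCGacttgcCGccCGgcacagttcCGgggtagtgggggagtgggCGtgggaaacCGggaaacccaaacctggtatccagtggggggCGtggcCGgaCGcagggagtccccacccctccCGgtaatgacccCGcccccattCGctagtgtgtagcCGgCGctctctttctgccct
Flt4: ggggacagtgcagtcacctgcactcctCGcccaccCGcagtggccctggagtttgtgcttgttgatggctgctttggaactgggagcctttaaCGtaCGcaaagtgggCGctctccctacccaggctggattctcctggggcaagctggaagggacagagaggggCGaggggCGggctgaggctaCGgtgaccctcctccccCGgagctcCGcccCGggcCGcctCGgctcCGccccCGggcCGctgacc
Kdr and Flt4, which held the largest shares of their HSC level in CCl4-fib, have 16 CG each, a number reached by 25.6% of the 32526 windows of this length. Stab2 has 3, Clec4g 4, Stab1 5 and Fcgr2b 5, against a median of 6 over all windows, and 49.3% of all windows have at most 5. Oit3, Dnase1l3, Gpihbp1 and Lyve1, which also fell in CCl4-fib, had no window. A link between the number of CG and the falls was not tested. Motifs were searched on both strands. A GATA motif, GATA preceded by A or T and followed by A or G, occurs in 1 of the 6 windows, that of Clec4g, and in 26.5% of all windows. An ETS motif, GGAAG preceded by A or C, occurs in 3 of the 6, those of Stab1, Stab2 and Clec4g, and in 39.3% of all, and 2 of the 3 matches in Clec4g share bases. TATAAA and the SOX letters ACAAT followed by A or G each occur in Clec4g alone, and in 12.3% and 17.1% of all windows. The MAF letters TGCTGA occur in Stab1 alone, and in 16.1% of all. With 6 windows these are descriptions and carry no test.

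Stab1 and Stab2 encode stabilins, scavenger receptors by which sinusoidal endothelium takes up hyaluronan and other waste molecules. Stab1 (NM_138672, chr14:31139017-31168641, minus strand, mm10) had a signal of 434, 526 and 954 in the 3 HSC libraries, of 17.5, 39.1 and 39.1 in CCl4-fib and of 54.4, 64.1 and 112 in NASH-fib. The 3 groups did not overlap, and NASH-fib lay just above CCl4-fib. Its log2 fold change was -4.28 ± 0.49 (SE, n = 3 per group, limma adjusted p = 0.000168) in CCl4-fib and -3.02 ± 0.49 (adjusted p = 0.00214) in NASH-fib against HSCs. The difference of 1.26 ± 0.49 between NASH-fib and CCl4-fib did not pass the limma test (adjusted p = 0.123).

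Stab2 (NM_138673, chr10:86841210-87007942, minus strand) was at 805, 507 and 1368 in HSCs, at 3.97, 21.3 and 21.0 in CCl4-fib and at 125, 34.7 and 307 in NASH-fib. The NASH-fib libraries were spread over a wide range without reaching either other group. The log2 fold change was -5.94 ± 0.82 (SE, n = 3 per group, limma adjusted p = 0.000527) in CCl4-fib and -2.89 ± 0.82 (adjusted p = 0.0437) in NASH-fib against HSCs. NASH-fib was above CCl4-fib by 3.05 ± 0.82 (limma adjusted p = 0.0411). Both NASH-fib calls of Stab2 depended on the libraries and the fit. Against HSCs the limma adjusted p was 0.117 without HSC 1, 0.138 without HSC 3, 0.0578 without NASH-fib 1 and 0.139 without NASH-fib 2, and this call was also lost in edgeR (adjusted p = 0.0795), in the fit of these 2 groups alone (0.0608) and with the date block (0.307). Against CCl4-fib it was 0.135, 0.0938 and 0.0696 without CCl4-fib 1, 2 and 3, 0.0883 without NASH-fib 1 and 0.131 without NASH-fib 3. The call against CCl4-fib was lost in 7 of the 15 alternative analyses, these among them.

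Clec4g, Lyve1 and Fcgr2b encode surface receptors of other classes. Clec4g (NM_029465, chr8:3716071-3720651, minus strand) encodes LSECtin, a C-type lectin, and had the highest level per kb of the 10 in HSCs and NASH-fib. Its signal was 4881, 1884 and 6682 in HSCs, with 56.4, 35.7 and 32.4 in CCl4-fib and with 434, 436 and 1596 in NASH-fib. The groups did not overlap, although NASH-fib 3 came close to HSC 2. The fall in CCl4-fib was -6.58 ± 0.60 in log2 (SE, n = 3 per group, limma adjusted p = 5.14e-05) and that in NASH-fib -2.55 ± 0.60 (adjusted p = 0.0171), with NASH-fib above CCl4-fib by 4.02 ± 0.60 (adjusted p = 0.00811). Against HSCs the NASH-fib call of Clec4g was lost in limma without HSC 1 (adjusted p = 0.0710), without HSC 3 (adjusted p = 0.0642) and without NASH-fib 2 (adjusted p = 0.0674). It was also lost in the limma fit of these 2 groups alone (adjusted p = 0.0550) and with the date block (adjusted p = 0.232). HSC 3 held 4.57 reads of Clec4g per base, and since at most 3 reads per position of a strand were counted upstream, its highest values may be flattened by an amount that was not tested.

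Lyve1 (NM_053247, chr7:110850607-110862953, minus strand) encodes a hyaluronan receptor shared by sinusoidal and lymphatic endothelium. It was at 299, 645 and 233 in HSCs, at 7.14, 11.9 and 3.82 in CCl4-fib and at 275, 33.8 and 151 in NASH-fib. NASH-fib 1 was above HSC 3, so these groups overlapped, while all CCl4-fib libraries lay below every other. The log2 fold change of -1.65 ± 0.75 in NASH-fib against HSCs did not pass (SE, n = 3 per group, limma adjusted p = 0.225). The fall in CCl4-fib was -5.48 ± 0.75 (limma adjusted p = 0.000491), and NASH-fib was above CCl4-fib by 3.83 ± 0.75 (adjusted p = 0.0155, and 0.0606 without NASH-fib 3).

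Fcgr2b (NM_010187, chr1:170960559-170976071, minus strand) encodes the inhibitory Fcγ receptor, through which sinusoidal endothelium removes small immune complexes. It had 2470, 1696 and 3071 units in HSCs, with 64.3, 71.4 and 60.1 in CCl4-fib and with 536, 209 and 633 in NASH-fib. Its CCl4-fib values were among the most even of the set, at 65.3 ± 5.73 (SD, n = 3). Log2 fold changes were -5.15 ± 0.44 in CCl4-fib (SE, n = 3 per group, limma adjusted p = 3.8e-05) and -2.50 ± 0.44 in NASH-fib (adjusted p = 0.00357) against HSCs, and 2.65 ± 0.44 (adjusted p = 0.0105) between NASH-fib and CCl4-fib. The groups did not overlap, and the call between NASH-fib and CCl4-fib held in all 15 alternative analyses, as it did for Clec4g.

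Gpihbp1, Oit3 and Dnase1l3 encode an anchored lipase carrier, a protein with a zona pellucida domain and a secreted nuclease. Gpihbp1 (NM_026730, chr15:75596658-75598213, plus strand) carries lipoprotein lipase to the capillary lumen. Its signal was 1924, 226 and 2739 in HSCs, with 12.7, 11.9 and 23.9 in CCl4-fib and with 173, 128 and 926 in NASH-fib. HSC 2 stood far below the other HSC libraries and below NASH-fib 3, so that HSCs and NASH-fib overlapped. The difference of -1.95 ± 0.95 in NASH-fib did not pass (SE, n = 3 per group, limma adjusted p = 0.268), and without HSC 2 it was -3.06 (adjusted p = 0.0272). In CCl4-fib the log2 fold change was -6.02 ± 0.95 (limma adjusted p = 0.00114). NASH-fib was above CCl4-fib by 4.07 ± 0.95 (limma adjusted p = 0.0260), a call lost without CCl4-fib 1, 2 or 3 (adjusted p = 0.0833, 0.102 and 0.0558) and without NASH-fib 3 (adjusted p = 0.0862).

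Oit3 (NM_010959, chr10:59422960-59441779, minus strand) was at 665, 693 and 1445 in HSCs, at 12.7, 2.55 and 8.59 in CCl4-fib and at 91.1, 47.2 and 190 in NASH-fib. It had the largest log2 fall of the 10 in both kinds of fibroblasts. This was -6.82 ± 0.65 in CCl4-fib (SE, n = 3 per group, limma adjusted p = 6.27e-05) and -3.21 ± 0.65 in NASH-fib (adjusted p = 0.00753), and the groups did not overlap. CCl4-fib 2 held 3 reads of Oit3, the floor. The rank of Oit3 depended on the fit. In CCl4-fib with a pseudocount of 5 it was at -6.17, behind Clec4g (-6.44) and Dnase1l3 (-6.38). In NASH-fib without HSC 2 it was at -3.38, behind Dnase1l3 (-3.57). NASH-fib exceeded CCl4-fib by 3.61 ± 0.65 (limma adjusted p = 0.0125), which was 0.0506 without CCl4-fib 2 and 0.0527 without NASH-fib 3.

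Dnase1l3 (NM_007870, chr14:7965190-7994182, minus strand) encodes a nuclease that digests circulating chromatin. HSCs had 4201, 2155 and 8148 units, CCl4-fib 43.7, 42.5 and 50.6, and NASH-fib 363, 210 and 1552. The groups did not overlap, and CCl4-fib was even while both other groups were spread over several-fold ranges. Log2 fold changes against HSCs were -6.50 ± 0.69 in CCl4-fib (SE, n = 3 per group, limma adjusted p = 0.000107) and -3.09 ± 0.69 in NASH-fib (adjusted p = 0.0129). The difference of 3.41 ± 0.69 between NASH-fib and CCl4-fib passed (limma adjusted p = 0.0168) but was lost without CCl4-fib 1 (adjusted p = 0.0554) and without CCl4-fib 2 (adjusted p = 0.0735).

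Kdr and Flt4 encode receptor tyrosine kinases, VEGF receptor 2 for VEGF-A and VEGF receptor 3 for VEGF-C and VEGF-D. They serve endothelium of many organs and are less particular to the sinusoid than the other members. Kdr (NM_010612, chr5:75933270-75978428, minus strand) was at 870, 623 and 1026 in HSCs, at 88.9, 91.0 and 89.7 in CCl4-fib and at 230, 224 and 317 in NASH-fib. Kdr had the smallest standard error of the 10, and the groups did not overlap. Its log2 fold change was -3.18 ± 0.33 in CCl4-fib (SE, n = 3 per group, limma adjusted p = 9.93e-05) and -1.69 ± 0.33 in NASH-fib (adjusted p = 0.00645), with NASH-fib above CCl4-fib by 1.49 ± 0.33 (adjusted p = 0.0233). That last call was lost in 5 of the 15 alternative analyses. Among them were the fits without CCl4-fib 1, 2 or 3 (limma adjusted p = 0.0720, 0.0934 and 0.0639) and without NASH-fib 3 (adjusted p = 0.0843).

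Flt4 (NM_008029, chr11:49609679-49652739, plus strand) was at 463, 454 and 778 in HSCs, at 88.1, 120 and 159 in CCl4-fib and at 121, 62.3 and 194 in NASH-fib. It was the member for which both kinds of fibroblasts overlapped. The fall was -2.19 ± 0.47 in CCl4-fib (SE, n = 3 per group, limma adjusted p = 0.00612) and -2.26 ± 0.47 in NASH-fib (adjusted p = 0.00889). Between NASH-fib and CCl4-fib the difference was -0.07 ± 0.47 (limma adjusted p = 0.939). Its sign turned with upper-quartile scaling (0.0915), in edgeR (0.25) and DESeq2 (0.23), and without CCl4-fib 3 (0.14) or NASH-fib 2 (0.36).

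**Figure D1:**
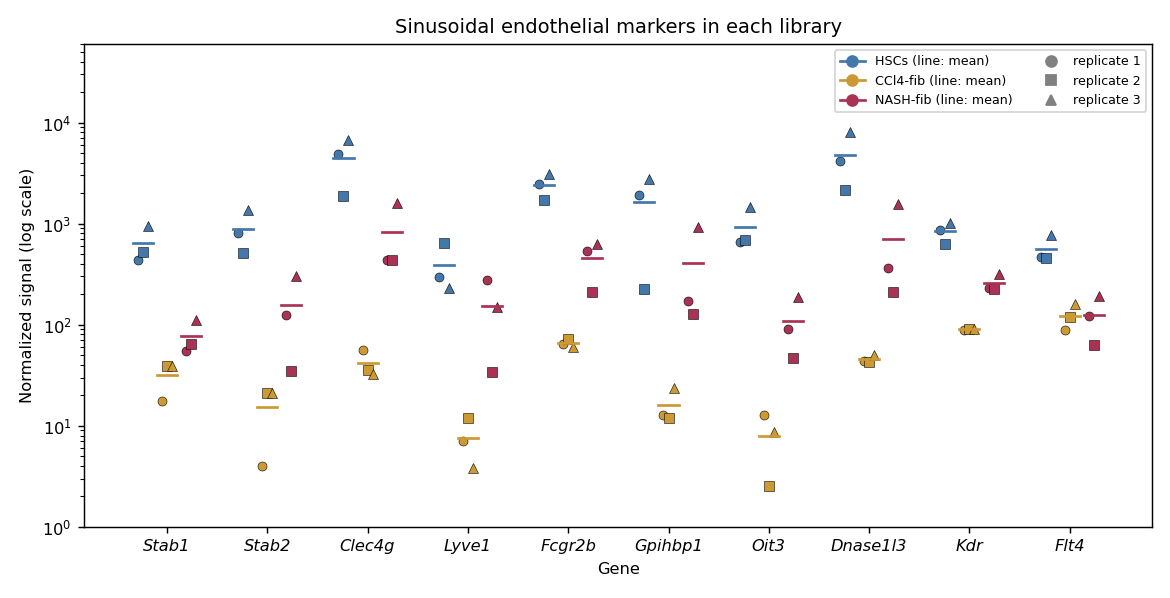
Normalized signal of the 10 markers (log scale) in each of the 9 libraries, with a bar at the mean of each group of 3. CCl4-fib points lie below all HSC points for every gene, and NASH-fib points lie between them except for Flt4, Lyve1 and Gpihbp1, where they overlap a neighbouring group.

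The median log2 fold change of the markers in CCl4-fib against HSCs was -5.71, beside 0.18 over all genes tested. For NASH-fib against HSCs these medians were -2.53 and -0.02, and for NASH-fib against CCl4-fib 3.23 and -0.11. Libraries of both groups were fully apart in the same direction for 10, 8 and 9 of the 10 markers, and for 20.9%, 11.6% and 17.1% of all genes. The comparisons share groups and are not independent of each other. With upper-quartile scaling in the same limma fit, the median of all genes was 0.05 for CCl4-fib against HSCs and 0.04 for NASH-fib against CCl4-fib, where 764 genes were called higher and 681 lower, beside 678 and 773 without it. In edgeR and DESeq2, which differ from limma in scaling, input and model, these medians were 0.00 and 0.02 for CCl4-fib against HSCs and 0.14 and 0.12 for NASH-fib against CCl4-fib, with 802 genes called higher and 563 lower in edgeR.

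All 10 calls in CCl4-fib held without any single library. In NASH-fib against HSCs the number of markers called ran from 6 to 9 when each library was left out. For NASH-fib against CCl4-fib it fell from 8 to 4, 3 and 5 without CCl4-fib 1, 2 and 3, and to 3 without NASH-fib 3.

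**Figure D2:**
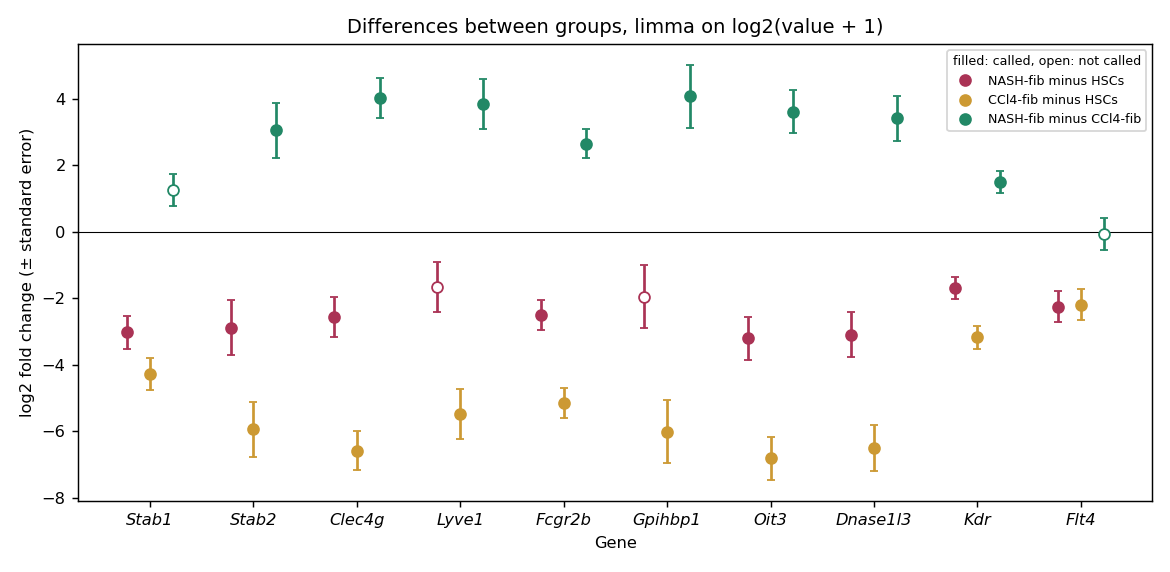
Log2 fold changes of the 10 markers for NASH-fib against HSCs, CCl4-fib against HSCs and NASH-fib against CCl4-fib, with bars of 1 standard error from limma and filled markers for called changes. Falls in CCl4-fib run from -6.82 for Oit3 to -2.19 for Flt4 and the values in NASH-fib from -3.21 for Oit3 to -1.65 for Lyve1, where Lyve1 and Gpihbp1 were not called.

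The names of the libraries carry dates whose meaning is not given. Within 11-3, all 10 markers were lower in NASH-fib 1 than in HSC 2, by a median of -1.96 in log2, and all 10 were lower in CCl4-fib 1 than in HSC 2, by a median of -4.94. Within 11-4, all 10 were lower in CCl4-fib 2 than in HSC 3, by a median of -5.67. NASH-fib was above CCl4-fib for 10 of 10 in the pair of 11-3, and for 9 and 10 of 10 in the pairs of 11-7, Flt4 being the exception at -1.34 in NASH-fib 2. With the date as a block in limma, 1 marker, Stab1, stayed called lower in NASH-fib than in HSCs, where only 11-3 holds both groups, while 10 stayed called in CCl4-fib against HSCs and 6 in NASH-fib against CCl4-fib. The 8 markers called without the block had log2 fold changes of -3.74 (Oit3) to -1.60 (Kdr) with it, and standard errors of 0.52 to 1.13.

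Many markers ranked the replicates alike. HSC 3 was the highest HSC library for 9 of the 10 and HSC 2 the lowest for 7, with Lyve1 in the reverse order. NASH-fib 3 was the highest of its group for 9 and NASH-fib 2 the lowest for 8. In CCl4-fib no library led for more than 5.

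Levels were compared between markers per kb of the deposited exon length. In HSCs the order was Clec4g at a mean of 3662 units per kb, Gpihbp1 at 2060, Fcgr2b at 1728, Dnase1l3 at 1311, Oit3 at 345, Kdr at 155, Lyve1 at 151, Stab2 at 111, Flt4 at 97.3 and Stab1 at 80.5. Among neighbours, only Dnase1l3 and Oit3, and Oit3 and Kdr, did not overlap over the 3 libraries. In CCl4-fib Fcgr2b led at 46.8 per kb, before Clec4g at 33.9, Flt4 at 21.1, Gpihbp1 at 20.4, Kdr at 16.6 and Dnase1l3 at 12.4, and Stab1, Oit3, Lyve1 and Stab2 were between 4.03 and 1.91. There the ranges separated only Kdr from Dnase1l3 and Dnase1l3 from Stab1. In NASH-fib the order ran from Clec4g at 672 per kb and Gpihbp1 at 517 to Stab2 at 19.3 and Stab1 at 9.70, and all neighbours overlapped.

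In CCl4-fib the VEGF receptors took a larger share of the summed level per kb of the 10. Kdr made 9.76% to 10.7% of the sum there, above its 1.30% to 2.58% in HSCs and 1.62% to 5.03% in NASH-fib. Flt4 made 9.38% to 16.2% in CCl4-fib, 0.791% to 1.76% in HSCs and 0.921% to 1.63% in NASH-fib. NASH-fib and HSC shares overlapped for both receptors. Lyve1 stood out in single libraries, with 5.58% in HSC 2 and 8.26% in NASH-fib 1 and at most 2.91% elsewhere.

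**Figure D3:**
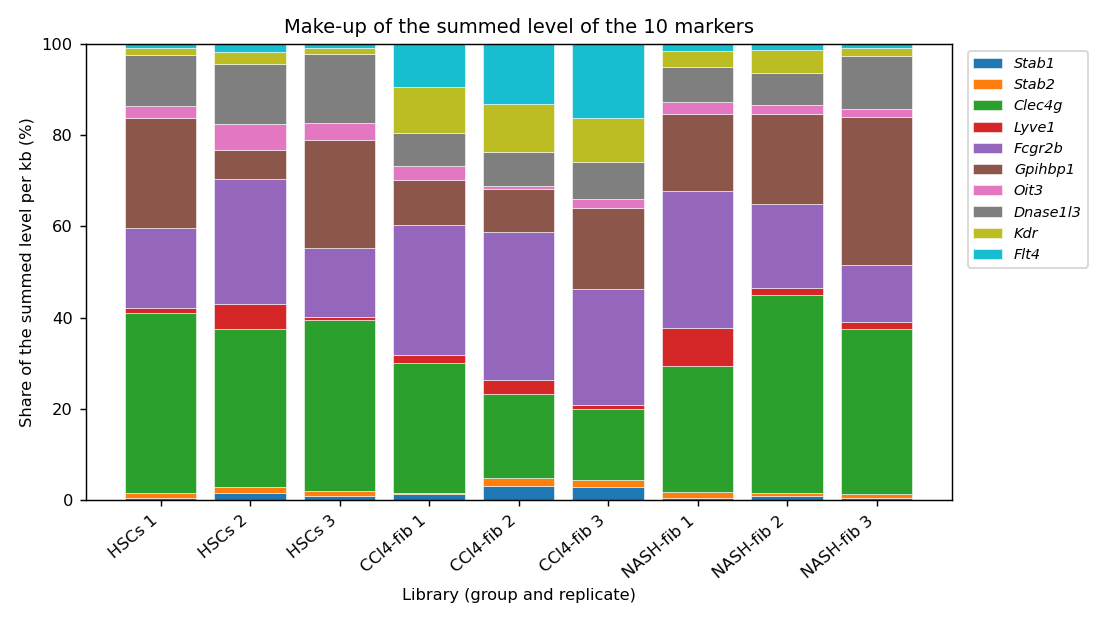
Share (%) of each marker in the summed level per kb of the 10, stacked for each of the 9 libraries. Kdr and Flt4 take their largest shares in the 3 CCl4-fib libraries, where Flt4 reaches 16.2%.

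Other endothelial genes were counted from lists written from general knowledge. In the directions not yet given, 16.2% of all genes were called higher in CCl4-fib and 8.23% higher in NASH-fib against HSCs, and 5.66% lower in NASH-fib against CCl4-fib. Of 24 genes common to endothelium, limma called 19 lower and 0 higher in CCl4-fib against HSCs, with a median log2 fold change of -4.99 (-4.92 with genes at the floor set to their bound). In NASH-fib 13 were called lower and 0 higher against HSCs (median -2.65), and 12 higher and 0 lower against CCl4-fib (median 2.55, or 2.46 with bounds). Cdh5, the endothelial cadherin of cell junctions, was at 548, 948 and 580 in HSCs, at 3.97, 2.55 and 3.82 in CCl4-fib and at 192, 40.1 and 131 in NASH-fib. Its pattern was that of the markers, with a log2 fold change of -7.25 in CCl4-fib (limma adjusted p = 2.92e-05) and -2.73 in NASH-fib (adjusted p = 0.00969). Pecam1 fell by 4.88 in log2 in CCl4-fib (limma adjusted p = 0.00104), while its -1.46 in NASH-fib did not pass (adjusted p = 0.306), and Tek, the angiopoietin receptor, was at -3.65 (adjusted p = 0.0011) and -0.87 (adjusted p = 0.451). Tal1, a transcription factor of endothelial and blood cells, had at most 3 reads in each CCl4-fib library, and HSCs exceeded that floor at least 17.8-fold. The endothelial sort marker Mcam did not pass in any comparison (adjusted p = 0.103 to 0.801) and is also a gene of vascular mural cells.

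Of 29 other genes of sinusoidal endothelium tested, 21 were called lower and 3 higher in CCl4-fib than in HSCs (median -2.95). NASH-fib had 13 lower and 0 higher against HSCs (median -1.53), and 10 higher and 2 lower against CCl4-fib (median 1.60). Mrc1, the mannose receptor, was at 2038, 3470 and 2463 in HSCs, at 19.8, 18.7 and 12.4 in CCl4-fib and at 962, 57.9 and 473 in NASH-fib, and fell by 7.20 (limma adjusted p = 0.000163) and 3.11 (adjusted p = 0.0303). F8, coagulation factor VIII, was at -6.28 in CCl4-fib (limma adjusted p = 0.00126) and at -2.19 in NASH-fib (adjusted p = 0.234). Fam167b fell by 4.26 in NASH-fib (limma adjusted p = 0.0061). Against this direction Cd14, the lipopolysaccharide co-receptor, was higher by 4.16 in CCl4-fib (limma adjusted p = 0.00132).

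Transcription factors of endothelium were called in both directions. Of 19 tested, 12 were called lower and 2 higher in CCl4-fib than in HSCs (median -2.74). NASH-fib had 6 lower and 3 higher against HSCs (median -1.18), and 2 higher and 1 lower against CCl4-fib (median 0.70, or 0.89 with bounds). Erg, an ETS factor, had 271, 160 and 176 units in HSCs, with 0.79, 4.25 and 1.91 in CCl4-fib and with 32.6, 3.56 and 17.7 in NASH-fib, with log2 fold changes of -6.04 (limma adjusted p = 0.000299) and -3.80 (adjusted p = 0.00727). Gata4, a regulator of sinusoidal identity that stellate cells also express, was at -1.39 in CCl4-fib (limma adjusted p = 0.0228) and -0.89 in NASH-fib (adjusted p = 0.202). Meis1 was higher by 3.56 in CCl4-fib (limma adjusted p = 0.000275). Hhex was higher in NASH-fib than in CCl4-fib by 4.13 (limma adjusted p = 0.0357), and Prox1, the lymphatic regulator, passed in no comparison (adjusted p = 0.311 to 0.943).

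Genes of capillaries and veins with continuous endothelium were split. Of 22 tested, NASH-fib had 6 called higher and 2 lower against HSCs (median 0.80), and 3 higher and 0 lower against CCl4-fib (median 0.91). In CCl4-fib 7 were called lower and 6 higher than in HSCs (median -0.59). Cd34, which fibroblasts also carry, was at 52.6, 93.2 and 115 in HSCs, at 3219, 2811 and 2822 in CCl4-fib and at 1384, 3416 and 3644 in NASH-fib. Cd34 rose by 5.14 (limma adjusted p = 3.81e-05) and 4.95 (adjusted p = 6.34e-05), and Cd200 by 4.71 (adjusted p = 1.65e-05) and 6.27 (adjusted p = 1.08e-05). Plvap, a protein of endothelial diaphragms, fell by 4.44 in CCl4-fib (limma adjusted p = 5.94e-05) and 4.33 in NASH-fib (adjusted p = 9.77e-05). Vwf, stored in granules of continuous endothelium, was at 21.0, 13.1 and 175 in HSCs, at 9.52, 3.40 and 7.63 in CCl4-fib and at 28.6, 86.4 and 170 in NASH-fib. Only its difference between NASH-fib and CCl4-fib passed, at 3.37 (limma adjusted p = 0.0489). Dll4, a Notch ligand, was at 25.7, 30.6 and 90.9 in HSCs, at 0 in all 3 CCl4-fib libraries and at 4.08, 9.80 and 24.6 in NASH-fib. It was at least 18.9-fold higher in HSCs than in CCl4-fib (10.8-fold without HSC 3) and at least 4.93-fold higher in NASH-fib (2.67-fold without NASH-fib 3). Of 6 lymphatic genes tested, 3 were called lower in CCl4-fib, the members Flt4 and Lyve1 and the gene Reln, and 1 higher, Pdpn. In NASH-fib 2 were called lower, Flt4 and Reln, and 1 higher, Pdpn, against HSCs. Reln, also a stellate cell gene, fell by 6.52 and 5.19 (limma adjusted p = 8.15e-06 and 3.36e-05), and Pdpn rose by 3.42 and 3.38 (adjusted p = 4.87e-05 and 7.51e-05). In CCl4-fib Cd200 was at 3310, 2116 and 1823 and Pdpn at 3022, 2927 and 3083. Cdh5 was at 3.97, 2.55 and 3.82 in the same libraries. Which cells carried Cd34, Cd200, Pdpn, Meis1 and Cd14 in the fibroblast libraries was not tested.

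Markers of other cell types varied over the same groups. The summed signal of the 10 was 9410 to 26444 in HSCs, 395 to 489 in CCl4-fib and 1450 to 5977 in NASH-fib. For 14 Kupffer cell and macrophage genes the sums were 5626 to 18994, 498 to 977 and 3119 to 6861 in the same order, and 10 of 14 were called lower in CCl4-fib and 5 of 14 in NASH-fib against HSCs, with medians of -4.34 and -2.35. The sums of 15 hepatocyte genes were 31120 to 64820, 2252 to 3275 and 8701 to 37773, with 13 of 15 called lower in CCl4-fib and 0 in NASH-fib against HSCs (medians -4.14 and -0.82). Between the fibroblasts 4 of 14 Kupffer cell and 10 of 15 hepatocyte genes were called higher in NASH-fib. The means of these sums, like those of the 10 markers, were highest in HSCs and lowest in CCl4-fib, and no gene of either list was at 0 in every library of a group. The sums of 12 leukocyte genes were 160 to 1366, 19.8 to 77.3 and 1064 to 5229, with Cd3e, Cd3g and Nkg7 at 0 in all CCl4-fib libraries. Among single genes, Alb, the albumin of hepatocytes, fell by 4.02 in CCl4-fib (limma adjusted p = 0.00114) and was at -0.94 in NASH-fib (adjusted p = 0.463). Clec4f, a Kupffer cell lectin, fell by 7.94 in CCl4-fib (limma adjusted p = 0.00104) and fell by 4.19 in NASH-fib (adjusted p = 0.0499). The other Kupffer cell genes called lower in NASH-fib, named because they were called, were Timd4 (-5.55), Marco (-5.17), Cd163 (-5.27) and Csf1r (-2.05). Adgre1, the F4/80 antigen, was at -4.85 in CCl4-fib (limma adjusted p = 0.00143) and -1.45 in NASH-fib (adjusted p = 0.341), and Ptprc, which encodes CD45, at -3.37 (adjusted p = 0.00698) and -0.07 (adjusted p = 0.982). The part of other cell types in the levels of the 10 markers was not tested.

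Mesenchymal lists differed between the groups as well. The 12 quiescent stellate cell genes summed to 73035 to 85956 in HSCs, 20097 to 31320 in CCl4-fib and 31173 to 49762 in NASH-fib. Rgs5 and Dcn, with means of 22009 and 13375, made most of the NASH-fib sum, and neither was called against HSCs there. By the median log2 fold change the order of the fibroblasts was the reverse, with -2.62 in CCl4-fib and -3.34 in NASH-fib. The 12 activated fibroblast genes summed to 9550 to 15312, 55386 to 61549 and 31377 to 37236, so that NASH-fib lay between HSCs and CCl4-fib. Against HSCs 8 of the 12 were called higher and 0 lower in CCl4-fib, where 16.2% of all genes were called higher. NASH-fib had 7 called higher, beside 8.23% of all genes, and 1 lower. The gene called lower was Postn, at -1.71 (limma adjusted p = 0.0225), and its -1.24 in CCl4-fib did not pass (adjusted p = 0.0511). Acta2, smooth muscle actin, rose by 6.57 in CCl4-fib (limma adjusted p = 6.98e-06) and 6.81 in NASH-fib (adjusted p = 1.08e-05), and Col1a2, whose promoter drives the sorted GFP, by 3.36 (adjusted p = 0.000163) and 1.98 (adjusted p = 0.00607). Epcam, an epithelial gene, was at the floor in HSCs, at 7.94, 0.85 and 1.91 in CCl4-fib and at 66.6, 37.4 and 20.6 in NASH-fib. Mesothelial genes summed to at most 945 in HSCs and at least 15748 in the fibroblasts, and cholangiocyte genes to at most 250.4 and at least 3492. Of the mean cholangiocyte sum of 8081 in NASH-fib, Spp1 made 6944. In CCl4-fib Spp1 made 1629 and Krt19 1881 of a mean sum of 4021. The 8 vascular mural genes overlapped between groups, from 2432 to 18416.

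**Figure D4:**
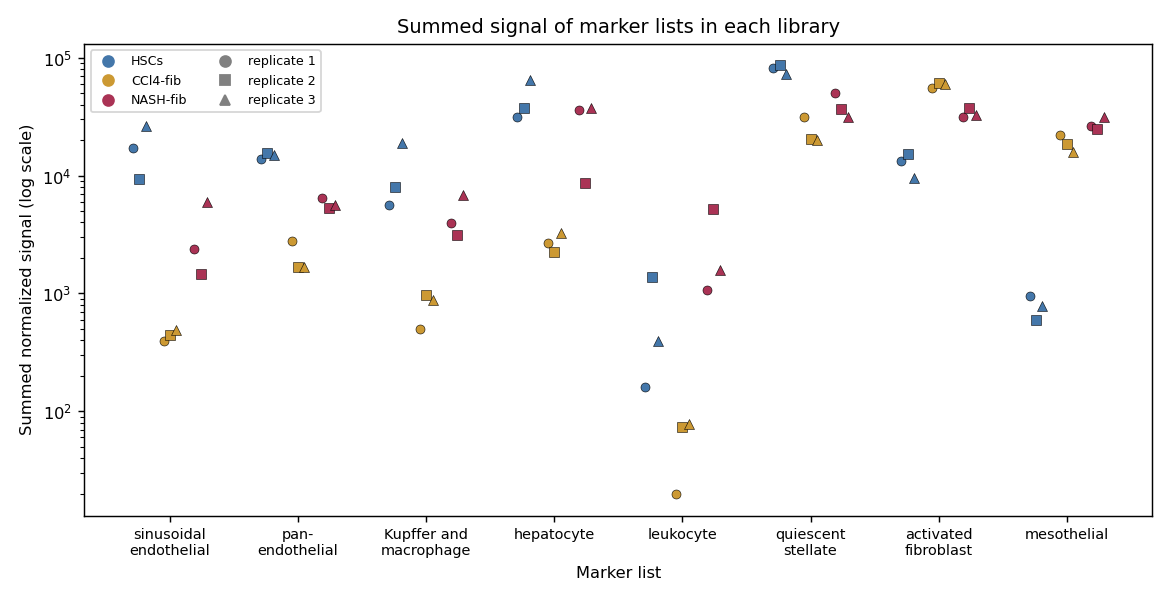
Summed normalized signal (log scale) of the 10 sinusoidal endothelial markers and of lists for other cell types, 1 point per library. The 10 markers sum to 9410 to 26444 in HSCs and to 395 to 489 in CCl4-fib, hepatocyte and Kupffer cell sums are likewise lower in CCl4-fib than in HSCs, and activated fibroblast sums are higher.

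Reads of either strand had been counted, so antisense reads cannot be set aside. In GENCODE annotation of GRCm38 the exons of Stab1 share 112 bases with Nt5dc2, those of Stab2 141 bases with Gm16268, those of Clec4g 146 bases with Gm16553 and those of Fcgr2b 155 bases with Gm38204, all on the opposite strand. The exons of the other 6 markers overlap no other gene.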

How the data were processed

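RNA sequencing of HSCs, CCl4-fib and NASH-fib was analysed, with 3 libraries per group. The deposited values are a signal per gene and library: the authors aligned SMARTer-amplified single-end reads to mm10 with STAR, counted reads of both strands on RefSeq exons with HOMER (at most 3 per position) and normalized them for DESeq2, per the file headers over 10 libraries. The table has 9 columns of values (0 unused). Each library carries 1 factor, and dividing by it gave whole reads for 100% of values (within 0.1 read). Intervals of depth cover counting error only.

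Groups were taken from the sample labels. Signal was tested as log2(signal + 1) with limma 3.58.1 in R 4.3.3, in 1 fit over the 3 groups with a trended prior, on the 13651 genes that filterByExpr kept (minimum count 10), with Benjamini-Hochberg adjustment over these genes. The design had named edgeR's quasi-likelihood test for counts and limma for other units. The code was tested on simulated data. The p-values measure the spread between pools of 3 to 5 mice. Replicate numbers did not pair the libraries.

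Alternatives were edgeR 4.0.16 and DESeq2 1.42.0 on the recovered reads, other pseudocounts, no filter, upper-quartile scaling, the 2 groups compared only, blocks for replicate number or date, and each library left out. A fold against a group with 3 reads or fewer in every library is a lower bound against the value of 3 reads.

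The members and gene lists were chosen with earlier results of these data known. Named beside the members were Pecam1, Cdh5, Tek, Mrc1, F8, Gata4, Cd34, Plvap, Vwf, Prox1, Mcam, Vegfa and markers of other cell types, the called gene with the largest change in each direction per endothelial list and comparison whose groups do not overlap, and the 10 genes nearest in pattern. Promoter windows came from RefSeq.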

Additional observations from a re-analysis of the deposited data

How the results depend on the processing

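Of 450 results (10 markers, 3 comparisons and 15 alternatives), 405 kept their direction and their side of the threshold, 38 lost the call, 2 gained it and 5 changed sign. All 10 calls in CCl4-fib against HSCs held in every alternative. All 5 sign changes were those of Flt4 between NASH-fib and CCl4-fib, at 0.25 in edgeR, 0.23 in DESeq2, 0.0915 with upper-quartile scaling, 0.14 without CCl4-fib 3 and 0.36 without NASH-fib 2, over a leave-one-out range of -0.45 to 0.36. The count of markers called lower in NASH-fib than in HSCs was 1 with a date block, 7 in edgeR, 6 in the fit of these 2 groups alone and 6 to 9 without 1 library. In NASH-fib against CCl4-fib it was 9 in DESeq2, 7 in the fit of these groups alone, 6 with a date block and 3 to 8 without 1 library, and in CCl4-fib against HSCs 10 to 10. Stab1 gained the call between NASH-fib and CCl4-fib in DESeq2 (1.44, adjusted p = 0.0357). Apart from the date block and the smaller fits, the cause was not tested. Same-numbered libraries deviated together with correlations of -0.47 to 0.51 and share only a number. With a replicate block 8, 10 and 8 markers were called in NASH-fib against HSCs, CCl4-fib against HSCs and NASH-fib against CCl4-fib. With 3 pools per group, members with wide replicate spread such as Gpihbp1 and Lyve1 could show only large differences.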

Other observations

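A list of ligands of the VEGF and angiopoietin systems also held Gdf2 and Bmp10, which are BMP ligands, and the angiopoietin-like Angptl4. Its 10 tested genes moved in both directions. In CCl4-fib limma called 4 higher and 3 lower than in HSCs (median log2 fold change 0.57). NASH-fib had 3 higher and 2 lower against HSCs (median 0.68), and 2 higher and 1 lower against CCl4-fib (median 0.19). The genes called lower in NASH-fib were Bmp10 and Gdf2 (-3.96, named because it was called) against HSCs and Angptl4 against CCl4-fib. No VEGF or angiopoietin gene proper was among them. Figf, which encodes VEGF-D, a ligand of Flt4, and was chosen after its values were seen, had a mean signal of 16.2 in HSCs, 438 in CCl4-fib and 447 in NASH-fib. Pgf, placental growth factor, had at most 3 reads in each HSC library, and was at 410, 27.2 and 37.2 in CCl4-fib and at 34.0, 1144 and 396 in NASH-fib. That floor was exceeded at least 41.4-fold in CCl4-fib (8.43-fold without CCl4-fib 1) and at least 137-fold in NASH-fib (56.3-fold without NASH-fib 2). Vegfa, the main ligand of Kdr, was at 8.18, 20.4 and 25.1 in HSCs, at 19.8, 66.3 and 63.9 in CCl4-fib and at 68.0, 61.5 and 38.3 in NASH-fib, and did not pass in any comparison (limma adjusted p = 0.122 to 0.777). Bmp10, a ligand of endothelial BMP receptors, fell by 5.25 in CCl4-fib (limma adjusted p = 0.00178) and fell by 5.21 in NASH-fib (adjusted p = 0.00301). Angpt1 and Angptl4 differed between the fibroblasts, by 2.19 (limma adjusted p = 0.0484) and -2.67 (adjusted p = 0.0396) in NASH-fib against CCl4-fib. Angpt2, named because it was called, was higher there by 2.15 (limma adjusted p = 0.0428). Against HSCs Angpt2 rose by 1.81 in CCl4-fib (limma adjusted p = 0.0418) and by 3.96 in NASH-fib (adjusted p = 0.00125). Angpt1 fell by 2.08 in CCl4-fib against HSCs (limma adjusted p = 0.0308), and its 0.12 in NASH-fib did not pass (adjusted p = 0.961).

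The genes outside the set whose centred log2 profile over the 9 libraries came nearest to the mean profile of the 10 markers were Ccdc67, Wfdc17, Naip2, Ms4a8a, Gimap5, Trim14, Apoa5, Pou2f2, C6 and Serpinf2, with root mean square differences of 0.50 to 0.63 log2 units. The median over the 13651 genes was 2.37, and the members themselves ran from 0.23 for Fcgr2b to 1.39 for Flt4. Among the 10, the hepatocyte products Apoa5, C6 and Serpinf2 were at ranks 7, 9 and 10. The cell types that express the others, which include all the nearest, were not assessed. Apoa5 was at 79.5, 69.9 and 312 in HSCs, at 0.79, 1.70 and 1.91 in CCl4-fib and at 44.9, 7.13 and 35.4 in NASH-fib.

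HSC 2 and NASH-fib 1, which carry the same date, deviated from their group means in the same way over genes, with a correlation of 0.65. The other 5 pairs of libraries from different groups with the same date ran from -0.17 to 0.04, and HSC 3 and NASH-fib 3, of different dates, were at 0.51. HSC 2 and NASH-fib 1 were also the libraries with the highest Lyve1 of their groups, at 645 and 275.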
